A study of Mus musculus with 19 samples.

Results

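DNA methyltransferases and their recruiting partners were followed in RNA sequencing of mouse embryonic stem cells and epiblast-like cells. The 6 genes were Dnmt1, Uhrf1 and Uhrf2, which belong to maintenance methylation, and Dnmt3a, Dnmt3b and Dnmt3l, which belong to de novo methylation. They were chosen by name from the 54119 genes summed from a deposited table of transcript abundance, and all 6 were among the 14972 genes tested. The table held 61 of their transcripts among 139852 matched to the annotation, and 26 of the 61 passed the filter of at least 1 TPM (a measure of transcript abundance scaled for transcript length and library total) in at least 3 libraries.

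The 19 libraries formed 6 groups. Wildtype XX cells of the LF2 line gave 3 libraries in the stem cell state and 3 in the epiblast-like state, and wildtype XY cells of the E14 line gave 3 and 3. Tet3-/- cells, which also came from LF2, gave 4 stem cell libraries (numbers 1 to 4) and 3 epiblast-like libraries (numbers 1, 3 and 4). The study asked whether TET3, an enzyme that oxidises 5-methylcytosine, is needed for the step between these states. Stem cells (mESC) were grown in N2B27 with LIF and inhibitors of GSK3 and of MEK1/2, per the labels' protocols. Epiblast-like cells (EpiLC) were obtained from them over 5 days with FGF5 and Activin A and no LIF. Sex and cell line cannot be told apart, because each sex came from 1 line. The labels say neither how Tet3 was disrupted nor whether the mutant numbers are clones or repeat cultures. They also do not say that the other libraries came from separate cultures, so p-values measure the spread between these libraries.

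DNMT1 copies methylation onto the new strand after replication. UHRF1 reads the half-methylated site and brings DNMT1 to it, and UHRF2 is its paralog. DNMT3A and DNMT3B place methyl groups on unmethylated DNA, and DNMT3L, which has no catalytic activity of its own, stimulates both. Naive stem cells kept with the GSK3 and MEK inhibitors are known for low genome-wide methylation, and methylation is regained as cells move toward the epiblast state.

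Sequences upstream of 4 start sites are shown because the strongest changes between states fell on Dnmt3a, Dnmt3b and Dnmt3l, and because Dnmt3a has an upstream and an internal start. Each run is the 250 bases before a RefSeq start (GRCm38.p6, plus strand, 5′ to 3′), with CG dinucleotides, the sites that these enzymes methylate, in capitals. All 6 genes matched the RefSeq table by symbol, with 13 starts.
Dnmt3b, chr2:153649199-153649448: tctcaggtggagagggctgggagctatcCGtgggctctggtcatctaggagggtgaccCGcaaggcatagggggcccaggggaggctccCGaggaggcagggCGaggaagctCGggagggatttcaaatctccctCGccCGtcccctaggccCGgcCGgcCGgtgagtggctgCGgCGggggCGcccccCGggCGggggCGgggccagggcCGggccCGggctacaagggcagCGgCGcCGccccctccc
Dnmt3a upstream start, chr12:3806730-3806979: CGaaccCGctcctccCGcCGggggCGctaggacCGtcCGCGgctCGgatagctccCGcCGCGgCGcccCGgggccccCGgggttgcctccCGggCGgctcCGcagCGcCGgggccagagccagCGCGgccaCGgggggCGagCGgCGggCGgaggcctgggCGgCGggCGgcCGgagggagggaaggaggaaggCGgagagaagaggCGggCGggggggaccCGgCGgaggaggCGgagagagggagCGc
Dnmt3a internal start, chr12:3891494-3891743: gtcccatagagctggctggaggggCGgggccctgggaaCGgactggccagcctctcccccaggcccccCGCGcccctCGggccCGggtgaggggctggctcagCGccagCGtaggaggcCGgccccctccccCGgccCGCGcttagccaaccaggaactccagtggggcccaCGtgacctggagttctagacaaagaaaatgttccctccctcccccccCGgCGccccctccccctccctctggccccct
Dnmt3l, chr10:78049592-78049841: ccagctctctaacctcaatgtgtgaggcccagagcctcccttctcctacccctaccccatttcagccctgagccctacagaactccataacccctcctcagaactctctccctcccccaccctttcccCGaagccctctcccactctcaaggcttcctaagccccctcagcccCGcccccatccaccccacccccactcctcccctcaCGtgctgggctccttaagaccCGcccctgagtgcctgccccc
The upstream Dnmt3a stretch held 38 CG, a number reached by 1.88% of the 32851 RefSeq promoters in windows of the same length. The Dnmt3b stretch held 21 (reached by 16.3%) and the internal Dnmt3a stretch 15 (27.3%). The Dnmt3l stretch held 4 (62.2%), below the median of 6 over all promoters. These are counts of letters in the reference and say nothing of methylation in the cells.

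Another pair of sequences carries the exon change in Dnmt3b that is described with the transcripts. Both run through the same place in the Dnmt3b coding sequence, near its 3′ end. The first, from Dnmt3b-201, has exons 22 and 23 in capitals (chr2:153683608-153683677 and chr2:153684359-153684477, GRCm38, plus strand), with the last bases of exon 21 before them and the first of exon 24 after them. The other, from Dnmt3b-208, lacks both exons, and its capitals mark the start of exon 24 joined to exon 21.
Dnmt3b-201: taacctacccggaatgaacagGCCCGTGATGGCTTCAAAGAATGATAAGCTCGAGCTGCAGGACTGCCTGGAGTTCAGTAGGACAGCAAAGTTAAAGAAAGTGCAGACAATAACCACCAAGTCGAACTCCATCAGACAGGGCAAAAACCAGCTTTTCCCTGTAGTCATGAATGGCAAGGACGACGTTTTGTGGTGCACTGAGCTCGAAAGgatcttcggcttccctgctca
Dnmt3b-208: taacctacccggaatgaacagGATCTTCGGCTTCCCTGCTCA
Exons 22 and 23 together hold 189 bases, or 63 codons, so the reading frame continues without them. They lie in the part of the gene that encodes the catalytic domain.

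Levels are given as scaled TPM, which is TPM divided by a median-of-ratios factor per library. Fold changes and differences between groups are on the log2(scaled TPM + 1) scale, which understates the change of low genes, and come from limma with a Benjamini-Hochberg adjusted p over all tested genes. A gene is called at an adjusted p under 0.05, and "rose" and "fell" are used of called genes. The number of reads behind a TPM value is not kept in the table, and depth is therefore unknown. Between states, the ranges of the libraries do not overlap for 61.2% of all tested genes in XX, 64.7% in XY and 50.3% in Tet3-/-, so that a separation of ranges alone is common here. A lower level per library cannot be told apart from fewer cells that express the gene.

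The state labels were checked with markers. The sum of 9 naive markers was 467.3 to 644.2 in mESC libraries and 36.29 to 93.95 in EpiLC libraries. The sum of 8 formative markers was 156.4 to 161.9 in XY EpiLC and 46.47 to 84.26 in Tet3-/- EpiLC, against 18.78 to 35.97 in mESC. In XX EpiLC it was 25.31 to 27.23, no higher than in XX mESC (25.91 to 35.97), and its members disagreed. XX means of Otx2 (11.71 against 23.57 in mESC) and Foxd3 (0.609 against 6.11) were lower in EpiLC. Those of Fgf5 (2.60 against 0.00971), Pou3f1 (3.24 against 0.0149) and Sox3 (1.26 against 0.0733) were higher. So were those of Zic2 (4.34 against 1.16) and Sall2 (2.32 against 0.663), while Lef1 was level (0.284 against 0.273). Foxd3 was also lower in EpiLC in XY (2.44 against 7.31) and in Tet3-/- (0.266 against 4.48). Otx2 was slightly lower in Tet3-/- EpiLC (19.12 against 20.92). The remaining formative means were higher in EpiLC in these genotypes. Of the shared pluripotency markers, Sox2 averaged 87.98, 90.65 and 104.5 in XX, XY and Tet3-/- mESC and 16.72, 2.04 and 7.80 in EpiLC. Pou5f1 averaged 344.3, 420.5 and 306.9 in mESC and 226, 251.9 and 232.2 in EpiLC. Markers of other cell types summed to at most 11.84 for primitive endoderm, 19.65 for trophoblast, 7.113 for fibroblasts and 7.677 for two-cell-like cells, of which Zscan4d was at 0 throughout XY EpiLC. Neural markers summed to 19.01 to 55.01 in EpiLC and to at most 2.29 in mESC. The EpiLC sum was nearly all Nes, with means of 22.93, 19.3 and 42.2 in XX, XY and Tet3-/-. Sox1, Pax6 and Neurog2 had means of at most 0.555 in every group. Mesendoderm markers summed to 97.73 in Tet3-/- EpiLC 3 and to at most 19.57 in every other library. Tet3 itself was not called lower in the mutants, with log2 differences from XX of -0.21 in mESC (limma adjusted p 0.44) and -0.35 in EpiLC (limma adjusted p 0.114). A summed transcript level checks nothing where a disruption leaves the transcript in place.

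XX mESC 2 stood apart from the other XX mESC libraries. Its X to autosome ratio (the difference of median log2 levels, genes on X less those on autosomes) was -0.404, against 0.133 and 0.13. The median log2 level of 20 DNA replication genes was 5.45 there, against 4.46 and 4.56. The Tet3-/- mESC libraries were split in the same direction. Numbers 2 and 3 had X to autosome ratios of -0.00409 and -0.0743, against 0.233 and 0.241 in numbers 1 and 4. Their replication medians were 5.05 and 5.22, against 4.43 and 4.55. Members whose call or direction rests on XX mESC 2 are given without that library as well.

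Among the maintenance genes, Dnmt1 (chr9:20907209-20959888, GRCm38, minus strand) fell between the states in XX and in Tet3-/- cells, and Uhrf1 was not called in any transition. Dnmt1 was 25.67, 41.48 and 28.41 in XX mESC and 19.25, 21.80 and 22.28 in XX EpiLC. In Tet3-/- cells it was 26.29, 35.00, 40.33 and 28.94 in mESC and 15.16, 27.42 and 19.54 in EpiLC. The XX ranges did not overlap, while 1 mutant EpiLC library, number 3, lay within the mutant mESC range. The log2 fold changes were -0.54 in XX (SE 0.21, limma adjusted p 0.0409) and -0.65 in Tet3-/- (SE 0.20, limma adjusted p 0.0107). The XX call is weak: 9 of 16 alternatives ended it, among them the deposited TPM without scaling and the fit without XX mESC 2, which stood highest. The Tet3-/- call ended on the deposited TPM and without Tet3-/- EpiLC 1. In XY cells Dnmt1 was 39.66, 30.87 and 43.06 in mESC and 27.96, 31.14 and 33.34 in EpiLC, with overlapping ranges and no call (-0.28, limma adjusted p 0.287). On the deposited TPM this XY value was 0.38, in the other direction.

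Uhrf1 (chr17:56303321-56323486, plus strand), the reader that recruits DNMT1, was the most abundant of the 6 genes in all 3 mESC groups by mean scaled TPM. It was 55.94, 88.78 and 55.94 in XX mESC and 40.97, 43.50 and 44.12 in XX EpiLC. In XY cells it was 104.1, 56.31 and 104.1 in mESC and 53.56, 54.99 and 57.02 in EpiLC. Every XX EpiLC library lay below every XX mESC library, while the XY ranges overlapped through XY mESC 2. Among the Tet3-/- libraries it was 34.95, 56.87, 75.57 and 37.32 in mESC and 28.74, 50.41 and 38.52 in EpiLC, with overlap. The log2 fold changes were -0.60 in XX (95% interval -1.21 to 0.02, limma adjusted p 0.0994), -0.61 in XY (limma adjusted p 0.0892) and -0.34 in Tet3-/- (limma adjusted p 0.312). Without XX mESC 2, the highest XX mESC library, the XX value was -0.38 (limma adjusted p 0.33). Without XY mESC 2, the lowest XY mESC library, the XY value was -0.90 and was called (limma adjusted p 0.0184). With all libraries the XX interval leaves room for a fall of more than 1 log2 unit as well as for none.

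Within the mESC groups, and in the Tet3-/- EpiLC group, Dnmt1 and Uhrf1 were high in libraries where the replication genes were high. In XX mESC both were highest in library 2, where the replication median was 5.45. In XY mESC both were lowest in library 2, where it was 4.43 against 4.84 and 4.80. In Tet3-/- mESC both were higher in libraries 2 and 3 (5.05 and 5.22) than in libraries 1 and 4 (4.43 and 4.55), and in Tet3-/- EpiLC both were highest in library 3 (5.13, against 4.25 and 4.56). The other EpiLC groups did not show this. In XX EpiLC the replication median was highest in library 2 (4.56, against 4.50 and 4.51) while both genes were highest in library 3, and in XY EpiLC it was highest in library 1 (4.99, against 4.90 and 4.87), where both genes were lowest. Its part in the results on these genes was not tested. The ratio of Uhrf1 to Dnmt1 averaged 2.10 in XX, 2.29 in XY and 1.53 in Tet3-/- mESC, and 2.03, 1.80 and 1.90 in the matching EpiLC groups.

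Uhrf2 (chr19:30030513-30093722, plus strand), the UHRF1 paralog, moved the other way from Dnmt1 in the mutants. For the mutants it was 17.84, 18.57, 14.16 and 16.83 in mESC and 23.24, 30.25 and 20.23 in EpiLC, a rise with no overlap (log2 fold change 0.51, SE 0.14, limma adjusted p 0.00537). On deposited TPM and on TPM rescaled over protein-coding genes this rise was not called. In XX cells it was 18.19, 14.61 and 19.87 in mESC and 16.49, 15.24 and 15.15 in EpiLC, which overlapped (-0.15, limma adjusted p 0.427). In the XY line it was 15.58, 21.05 and 17.94 in mESC and 22.43, 24.03 and 23.68 in EpiLC. The XY ranges did not overlap, and the value of 0.35 missed the threshold (limma adjusted p 0.0541). It was called without XY mESC 2 (0.46, limma adjusted p 0.0258) and on the deposited TPM (1.01, limma adjusted p 0.011).

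Both de novo enzymes rose in every genotype. Dnmt3a (chr12:3806007-3914443, plus strand) was 2.70, 0.829 and 2.95 in XX mESC and 7.66, 8.10 and 9.42 in XX EpiLC. In XY cells it was 4.25, 3.45 and 3.68 in mESC and 18.58, 18.89 and 18.79 in EpiLC. In Tet3-/- cells it was 1.495, 0.982, 0.781 and 1.46 in mESC and 9.47, 8.48 and 11.14 in EpiLC. In each genotype every EpiLC library lay above every mESC library and the XY EpiLC libraries lay close together. The log2 fold changes were 1.65 in XX (SE 0.22, limma adjusted p 1.15e-05), 2.05 in XY (SE 0.22, limma adjusted p 9.16e-07) and 2.30 in Tet3-/- (SE 0.21, limma adjusted p 9.47e-08). All 3 calls held under every alternative run for them.

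Dnmt3b (chr2:153649450-153687730, plus strand) was 4.65, 10.0 and 4.52 in XX mESC and 27, 26.98 and 28.03 in XX EpiLC. In the XY line it was 13.39, 8.15 and 12.85 in mESC and 100.3, 104.2 and 103.5 in EpiLC. Among the Tet3-/- libraries it was 4.41, 6.34, 7.95 and 5.09 in mESC and 26.06, 46.89 and 33.15 in EpiLC. No EpiLC library overlapped the mESC libraries of its genotype, and the XY EpiLC libraries stood far above all others. The log2 fold changes were 2.02 in XX (SE 0.26, limma adjusted p 8.31e-06), 3.08 in XY (SE 0.26, limma adjusted p 5.43e-08) and 2.37 in Tet3-/- (SE 0.24, limma adjusted p 5.01e-07), and these calls too held under every alternative run. Within the mESC groups Dnmt3b was highest where Dnmt1 was high, in XX 2, in XY 1 and 3, and in the mutants 2 and 3. In the mutant EpiLC it was highest in library 3, the library with the mesendoderm sum of 97.73. Dnmt3c, a rodent copy of Dnmt3b whose reads could be shared with it, was at most 0.0928 deposited TPM in any library and was not tested.

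Dnmt3l (chr10:78041947-78063622, plus strand), the stimulating factor, behaved differently in the 2 lines. In XY cells it was 6.39, 4.80 and 6.37 in mESC and 0.334, 0.183 and 0.129 in EpiLC. The XY mean thus went from 5.85 ± 0.910 to 0.215 ± 0.106 (SD, n = 3 each), a fall with no overlap (log2 fold change -2.49, SE 0.48, limma adjusted p 0.000428). In XX cells it was 19.32, 3.27 and 18.72 in mESC and 19.79, 18.49 and 17.77 in EpiLC. Apart from XX mESC 2, the XX libraries of both states lay between 17.77 and 19.79, and the XX value of 0.72 (limma adjusted p 0.235) was -0.03 without that library. For the mutants Dnmt3l was 10.77, 3.73, 8.51 and 11.99 in mESC and 3.89, 10.15 and 8.48 in EpiLC, with overlapping ranges and no call (-0.18, limma adjusted p 0.766).

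**Figure D1:**
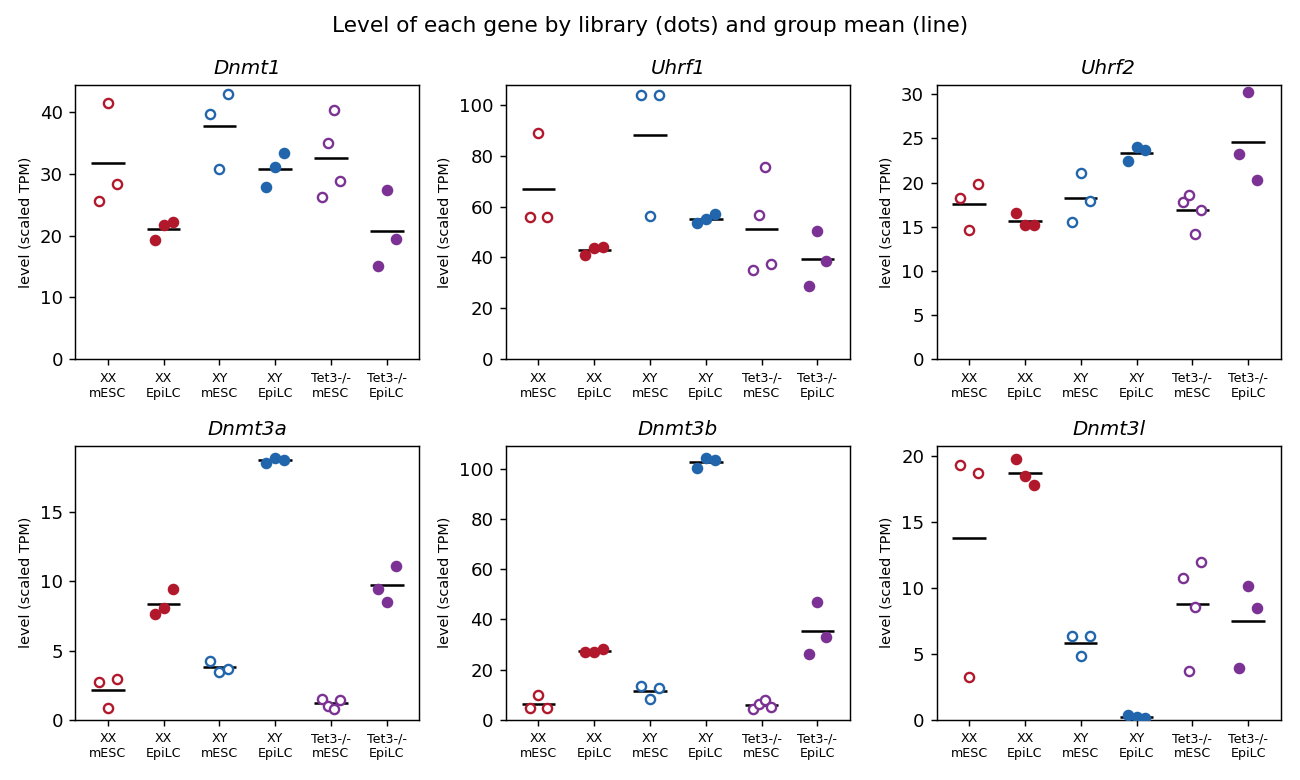
Scaled TPM (vertical axis, linear scale) of the 6 genes in each of the 19 libraries (points), with a panel for each gene. Libraries are grouped by genotype and state on the horizontal axis, with a bar at each group mean. Dnmt3a and Dnmt3b stand higher in every EpiLC group than in the mESC group of the same genotype, and Dnmt3l in XY EpiLC (0.129 to 0.334) stands below all other groups.

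**Figure D2:**
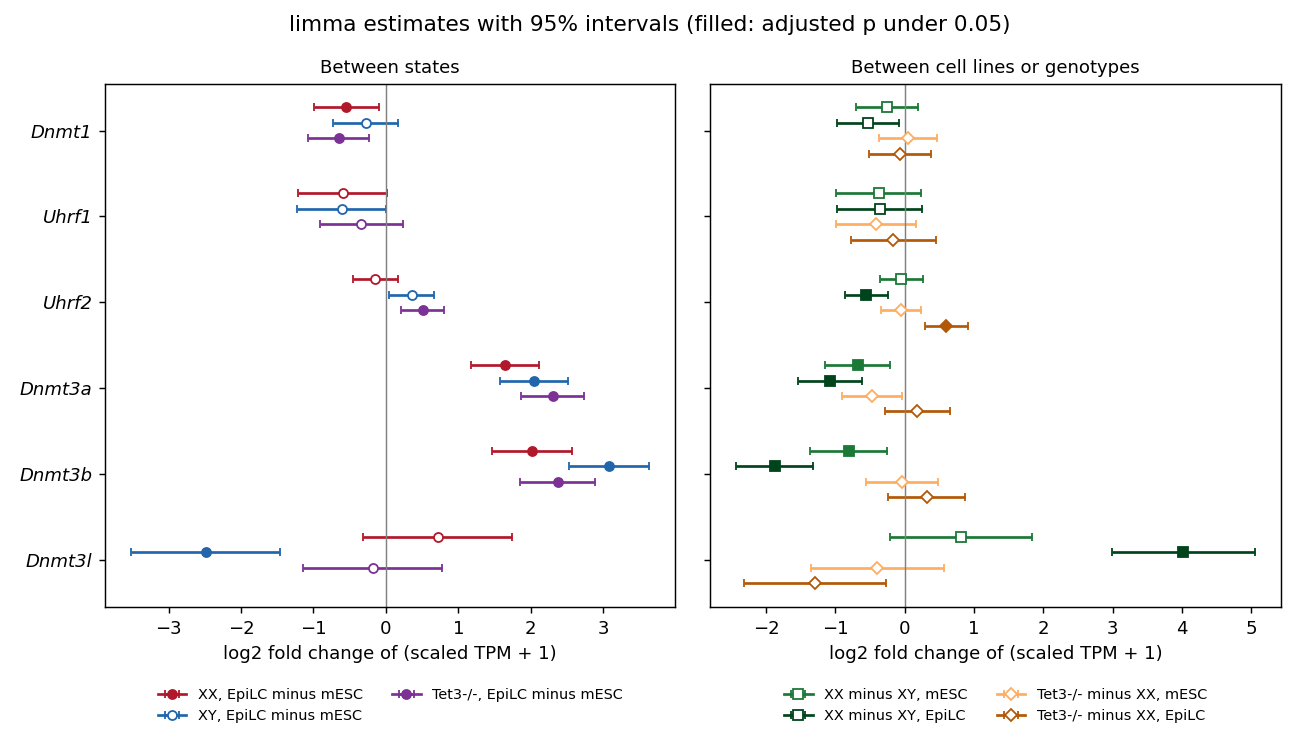
Log2 fold changes of scaled TPM + 1 with 95% limma intervals for the 6 genes, between states in each genotype (left) and between lines or genotypes in each state (right), with filled symbols for an adjusted p under 0.05. Dnmt3a and Dnmt3b are filled to the right of 0 in all 3 transitions, and Dnmt3l shows its widest separation between XX and XY EpiLC (4.02).

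Counted over the family, 3 of 6 genes were called in the XX transition (Dnmt3a and Dnmt3b higher, Dnmt1 lower), where 50.4% of all tested genes were called. In the XY transition 3 of 6 were called (Dnmt3a and Dnmt3b higher, Dnmt3l lower), against 51.4% of all genes. In the Tet3-/- transition 4 of 6 were called (Dnmt3a, Dnmt3b and Uhrf2 higher, Dnmt1 lower), against 52.4%. These shares are near the background, so the counts single out nothing about the family. What the values show is the change in order within a library. By mean scaled TPM, which is per transcript length, Uhrf1 stood first and Dnmt3a last in all 3 mESC groups. In XY EpiLC Dnmt3b stood first (102.7) and Dnmt3l last (0.215). In XX and Tet3-/- EpiLC Uhrf1 stayed first (42.87 and 39.23), and Dnmt3b came next (27.34 and 35.37).

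Ratios within a library do not depend on the scaling. The level of Dnmt3a plus Dnmt3b per Dnmt1 was 0.286, 0.261 and 0.263 in XX mESC, although Dnmt1 itself ranged from 25.67 to 41.48 there. It was 0.445, 0.376 and 0.384 in XY mESC and 0.225, 0.209, 0.217 and 0.226 in Tet3-/- mESC. In EpiLC it was 1.80, 1.61 and 1.68 in XX, 4.25, 3.95 and 3.67 in XY, and 2.34, 2.02 and 2.27 in Tet3-/-. The libraries of each group lay close together, and neither the 3 mESC groups nor the 3 EpiLC groups overlapped one another. In both states the order of the ratio put XY first, while XX and Tet3-/- changed places. The ratio of Dnmt3b to Dnmt3a, by contrast, overlapped between XX and Tet3-/- mESC (1.53 to 12.1 and 2.95 to 10.2). The ratios are given as a description, with no test, and how often other ratios separate the groups was not counted.

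The ratio of Dnmt3l to Dnmt3a plus Dnmt3b was lower in EpiLC than in mESC in every genotype, apart from XX mESC 2. In XX mESC it was 2.63, 0.302 and 2.50, and in XX EpiLC 0.571, 0.527 and 0.474. In the XY line it went from 0.362, 0.414 and 0.385 to 0.00281, 0.00148 and 0.00105. In Tet3-/- cells it went from 1.82, 0.509, 0.975 and 1.83 to 0.11, 0.183 and 0.191. Outside XX mESC 2 there was thus more Dnmt3l than de novo enzyme transcript in XX mESC, and in XY EpiLC very little for a large amount of Dnmt3b.

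**Figure D3:**
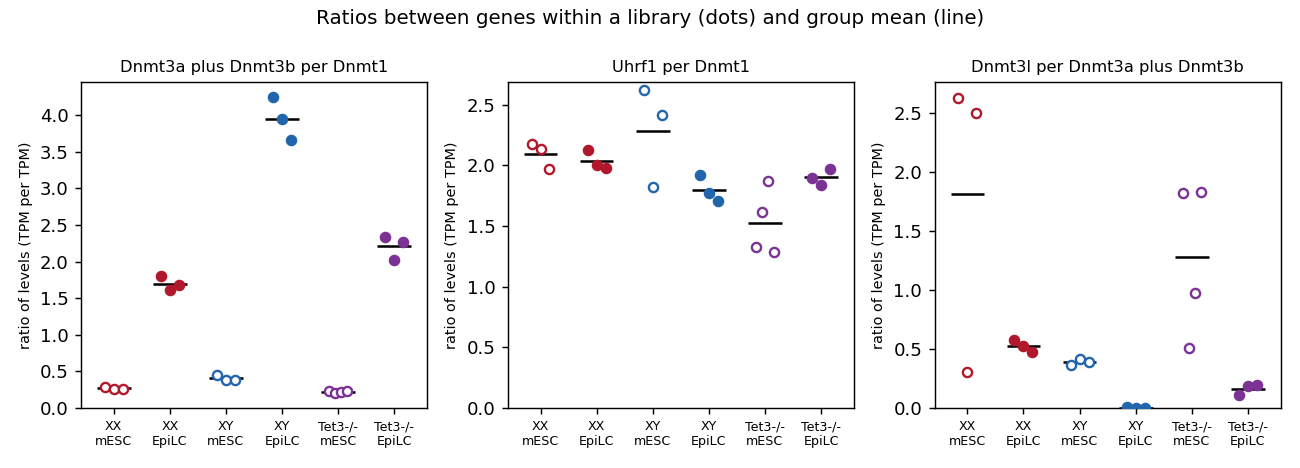
Ratios of summed levels within each library (points, on a linear vertical axis without unit) by group, with a bar at each group mean. The ratio of Dnmt3a plus Dnmt3b to Dnmt1 separates mESC (0.209 to 0.445) from EpiLC (1.61 to 4.25), and the ratio of Dnmt3l to Dnmt3a plus Dnmt3b is lowest in XY EpiLC.

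The XX and XY lines were then compared within each state. In mESC 2 of 6 genes were called, Dnmt3a and Dnmt3b, both lower in XX, where 31.3% of all genes were called. The log2 differences were -0.68 for Dnmt3a (SE 0.22, limma adjusted p 0.0278) and -0.80 for Dnmt3b (SE 0.26, limma adjusted p 0.0278). Neither is firm, since 6 and 8 of 16 alternatives ended these calls. For Dnmt3a these included leaving out XX mESC 2, XY mESC 1 or XY mESC 3, and for Dnmt3b leaving out XX mESC 1 or 3 or XY mESC 1 or 3. Dnmt3l differed by 0.81 (limma adjusted p 0.223), and by 1.56 without XX mESC 2 (limma adjusted p 0.003). The maintenance genes were not called in mESC, with -0.26 for Dnmt1, -0.37 for Uhrf1 and -0.05 for Uhrf2.

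In EpiLC 4 of 6 genes were called, against 33.8% of all genes. Dnmt3b was lower in XX by a log2 difference of -1.87 (SE 0.26, limma adjusted p 4.12e-05), which corresponds to group means of 27.34 and 102.7. Dnmt3a was lower by -1.08 (SE 0.22, limma adjusted p 0.00124), and Dnmt3l was higher by 4.02 (SE 0.48, limma adjusted p 9.31e-06). These 3 calls held under every alternative run. Uhrf2 was lower by -0.55 (SE 0.15, limma adjusted p 0.00814), a call that ended when only protein-coding transcripts were summed. In all 4 genes the XX and XY EpiLC libraries did not overlap, as in 65% of all genes. Dnmt1 was -0.52 and missed the threshold (limma adjusted p 0.0658), although its libraries did not overlap either. On the deposited TPM it was -1.24 and called (limma adjusted p 0.0233).

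The transitions of the lines differed for Dnmt3l and Dnmt3b, 2 of 6 genes, against 23.7% of all genes. The Dnmt3l difference was 3.21 (SE 0.69, limma adjusted p 0.00273) and was called under all 22 alternatives. The Dnmt3b difference was -1.07 (SE 0.37, limma adjusted p 0.0466), and 14 of 22 alternatives ended the call, among them every fit that left out an EpiLC library. It was also lost on the deposited TPM and without XX mESC 2, XY mESC 2 or XY mESC 3. For Dnmt3a the difference was -0.40 (limma adjusted p 0.393), and -0.76 without XX mESC 2 (limma adjusted p 0.009). For Uhrf2 it was -0.50 (limma adjusted p 0.0923), and -0.62 without XX mESC 2 (limma adjusted p 0.0301).

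The Tet3-/- cells were compared with XX cells of the same line. In mESC none of the 6 genes was called by limma, 1 had an unadjusted p under 0.05 (Dnmt3a), and 3.18% of all genes were called. Dnmt3a had a log2 difference of -0.47 (95% interval -0.91 to -0.03, limma adjusted p 0.288), with mutants at 0.781 to 1.495 and XX at 0.829 to 2.95. Without XX mESC 2 this difference was -0.83 (limma adjusted p 0.002) and that of Dnmt3l -1.14 (limma adjusted p 0.044), so both rest on whether that library is kept. That fit kept mutant mESC 2 and 3, which had high replication medians as XX mESC 2 did. Their Dnmt3a (0.982 and 0.781) and Dnmt3l (3.73 and 8.51) were the lowest of the mutants. The groups of that fit thus differ in this respect as well as in genotype, and its part was not tested. With all libraries the interval was -0.37 to 0.46 for Dnmt1 and -0.56 to 0.48 for Dnmt3b.

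In EpiLC 1 of 6 was called, against 5.46% of all genes. This was Uhrf2, higher in the mutants by 0.60 (SE 0.15, limma adjusted p 0.024), with 20.23 to 30.25 in the mutants and 15.15 to 16.49 in XX. The call ended in 8 of 16 alternatives, among them the deposited TPM and the fits without Tet3-/- EpiLC 3 or without any single XX EpiLC library. Dnmt3l was lower in every mutant EpiLC library (3.89 to 10.15) than in every XX one (17.77 to 19.79) (29% of all genes had no overlap), but its difference of -1.29 had a 95% interval of -2.32 to -0.27 and a limma adjusted p of 0.141. Dnmt3a and Dnmt3b were 0.18 and 0.32 and not called (limma adjusted p 0.736 and 0.570), with upper interval ends of 0.65 and 0.87.

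The transition itself did not differ between Tet3-/- and XX for any member by limma, where 2 had an unadjusted p under 0.05 (Dnmt3a and Uhrf2) and 0.661% of all genes were called. The difference was 0.66 for Dnmt3a (limma adjusted p 0.438), with 1.01 without XX mESC 2 (limma adjusted p 0.010). The fit without XX mESC 2 again kept mutant mESC 2 and 3. With all libraries the difference was 0.66 for Uhrf2 (limma adjusted p 0.183), 0.36 for Dnmt3b (95% interval -0.40 to 1.12) and -0.90 for Dnmt3l (95% interval -2.31 to 0.51).

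The transcripts of each gene were then examined. A transcript's TPM is the quantifier's estimate of how reads shared between isoforms divide, so a share carries that estimate as well as the spread between libraries. Shares were compared between states with an exact 2-sided permutation test that exchanged state labels within each genotype. It had 14000 arrangements and a smallest possible p of 7.1e-05, and adjustment was over 31 shares. How often the shares of other genes separate between states was not counted. A lack of overlap between shares is therefore given as a description only. Transcript levels were also fitted with limma over 36116 transcripts, and 26 member transcripts met the level or share needed to be named, of which 23 passed the filter and were fitted. Of the 23, 11 were called in the XX transition (35.2% of all transcripts were called), 15 in XY (35.1%) and 13 in Tet3-/- (35.3%).

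In Dnmt3b the transcripts that lack exons 22 and 23 (the sequence printed for Dnmt3b-208) held a smaller share in EpiLC than in mESC. The share is of all Dnmt3b transcripts, among them the retained-intron models Dnmt3b-211 and Dnmt3b-212. Transcripts without the exons made up 46.8%, 37.3% and 36.0% of Dnmt3b in XX mESC and 8.22%, 6.22% and 8.28% in XX EpiLC. In XY cells the share went from 39.7%, 44.2% and 38.1% to 12.9%, 10.5% and 11.1%. Among the Tet3-/- libraries it went from 26.6%, 41.3%, 26.8% and 41.1% to 8.38%, 15.4% and 6.63%. No EpiLC library reached the lowest mESC library of its genotype, and the mean change within genotypes was -28.5 percentage points (exact permutation p 7.1e-05, the smallest possible, adjusted p 0.00055).

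The rise of Dnmt3b was thus carried mostly by transcripts with both exons. The protein-coding ones with exons 22 and 23 averaged 2.42 and 20.69 scaled TPM in XX mESC and EpiLC, 5.30 and 78.12 in XY, and 2.91 and 28.08 in Tet3-/-. Those without averaged 2.51 and 2.07 in XX, 4.61 and 11.80 in XY, and 2.00 and 3.87 in Tet3-/-. Dnmt3b-208, the main transcript without the exons (796 codons, against 860 in Dnmt3b-201), was called higher in XY EpiLC (log2 fold change 1.23, limma adjusted p 0.00846) and not called in XX or Tet3-/-.

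Dnmt3b-202 (859 codons) went furthest. It lacks exon 2 (chr2:153650785-153650899), which lies before the start codon, and holds exons 22 and 23. Its scaled TPM was 0, 0.356 and 0.362 in XX mESC and 11.04, 11.38 and 11.13 in XX EpiLC. It was listed at 0 in all 3 XY mESC libraries and was 40.44, 41.11 and 38.69 in XY EpiLC. For the mutants it was 0.629, 0, 1.03 and 0 in mESC and 13.12, 10.93 and 15.56 in EpiLC. The limma log2 fold changes on the scale with 1 added were 3.31, 5.36 and 3.38 (adjusted p 7.42e-09, 2.14e-11 and 1.64e-09). Its share of Dnmt3b went from 3.85% to 40.9% in XX, from 0% to 39.0% in XY and from 6.80% to 40.2% in Tet3-/- (exact permutation p 7.1e-05, adjusted p 0.00055). Over all Dnmt3b transcripts that lack exon 2, the share rose by 20.1 percentage points (exact permutation, adjusted p 0.00055).

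Dnmt3b-201, which keeps exon 2 and both late exons, fell in share by 13.7 percentage points (exact permutation, adjusted p 0.017) while its level rose in each genotype (limma log2 fold changes 1.45, 1.94 and 1.39). In XX its shares overlapped between states, with 20.3%, 46.3% and 15.3% in mESC and 21.6%, 29.7% and 18.3% in EpiLC. Those of Tet3-/- overlapped through EpiLC 3 (36.8%), and those of XY did not overlap. The XX and Tet3-/- level calls were lost on the deposited TPM and, in XX, without XX EpiLC 2, XX mESC 1 or XX mESC 3, and in Tet3-/- without Tet3-/- EpiLC 3 or Tet3-/- mESC 1. Dnmt3b-207 rose in share by 11.8 points (exact permutation, adjusted p 0.00074). For Dnmt3b-202 the XX transition minus the XY one was called at -2.05 (SE 0.31, limma adjusted p 0.000369), where 11.8% of all transcripts were called, and its share in EpiLC was nonetheless close in the lines (40.9% and 39.0%). With a pseudocount of 0.1 this difference was -3.30 and not called (limma adjusted p 0.0688).

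**Figure D4:**
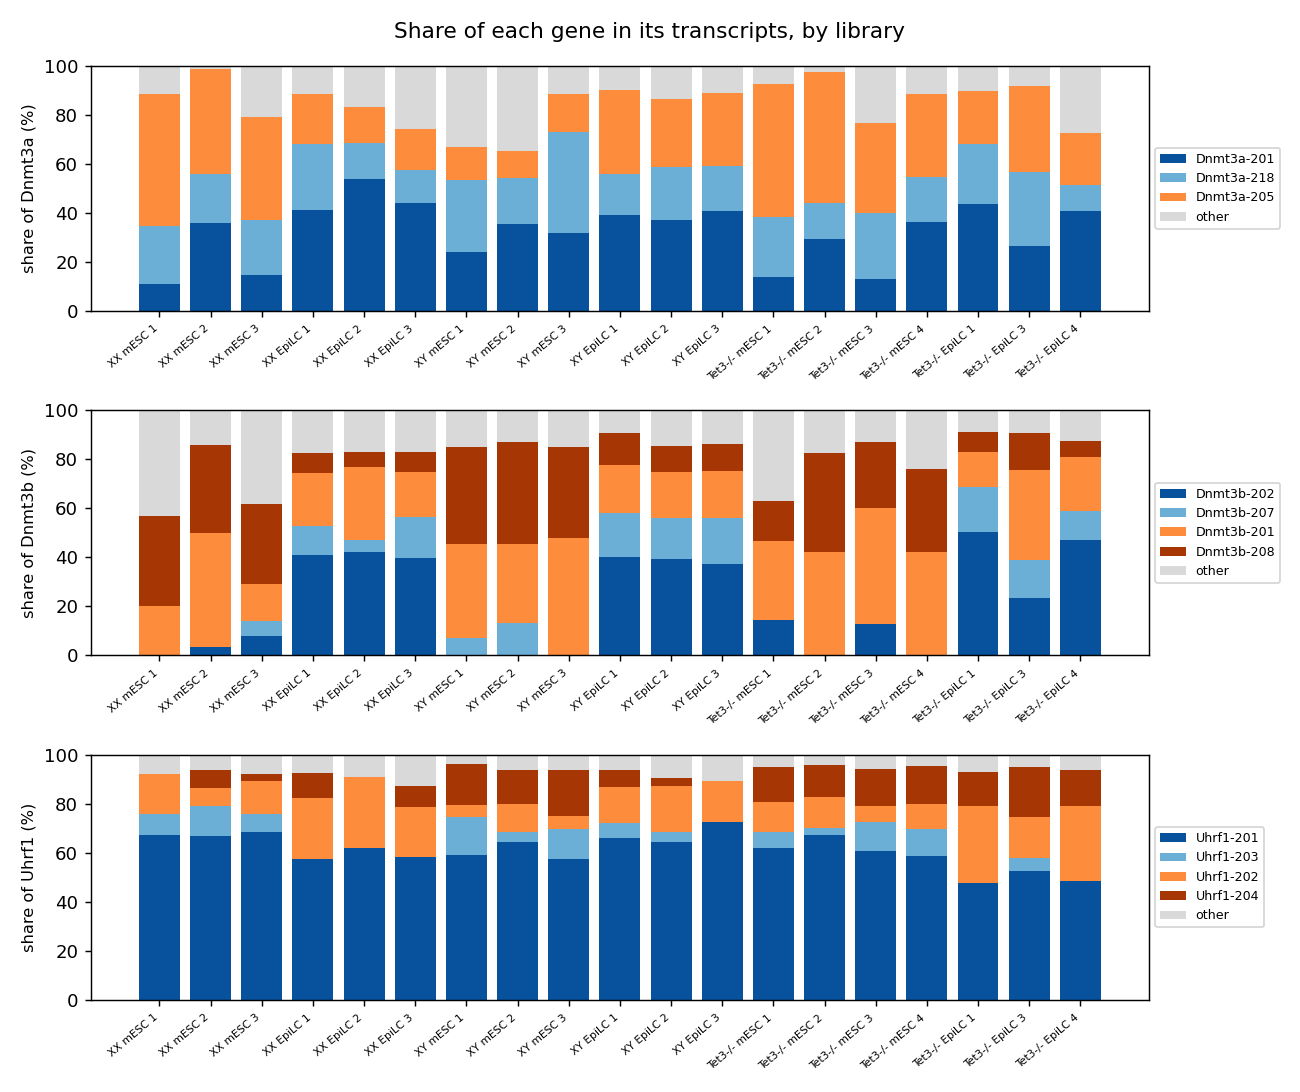
Share of each gene's summed TPM (vertical axis, percent) held by the main transcripts of Dnmt3a, Dnmt3b and Uhrf1, as a stacked bar for each library. Other transcripts of the gene are in grey. The share of Dnmt3b-208, the main transcript without exons 22 and 23, is lower in EpiLC in all genotypes. That of Dnmt3a-205, from the internal start, is lower in EpiLC in XX and higher in XY.

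In Dnmt3a the share of the internal start went in opposite directions in the lines, on mESC totals of 0.781 to 4.25 scaled TPM. The upstream starts give transcripts of 908 codons (Dnmt3a-201 and Dnmt3a-218), and the internal start at position 3891728 gives Dnmt3a-205 with 689 codons. The internal start held 53.9%, 43.0% and 41.9% of Dnmt3a in XX mESC and 20.5%, 14.7% and 16.7% in XX EpiLC. In XY cells it held 13.8%, 11.1% and 15.6% in mESC and 34.4%, 27.9% and 29.8% in EpiLC. In Tet3-/- cells it held 54.3%, 53.4%, 36.7% and 33.9% in mESC and 21.8%, 35.1% and 21.3% in EpiLC. XX and XY did not overlap between states, with the share lower in EpiLC in XX and higher in XY, and the mutants overlapped through EpiLC 3. The test over all genotypes, which pools these directions, gave -10.1 percentage points (exact permutation p 0.10, adjusted p 0.15). Full-length upstream transcripts held 53.3%, 54.2% and 72.8% in XY mESC and 55.8%, 58.7% and 59.1% in XY EpiLC, with overlap. In XX they held 34.6%, 55.8% and 36.9% in mESC and 67.9%, 68.6% and 57.5% in EpiLC. Over all genotypes their share rose by 11.4 points (exact permutation, adjusted p 0.044). Dnmt3a-204, an incomplete model that also starts upstream, held 18.87%, 26.1% and 0% in XY mESC and 0% in XY EpiLC.

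By level, Dnmt3a-205 averaged 1.02 and 1.44 in XX mESC and EpiLC, 0.514 and 5.75 in XY, and 0.530 and 2.47 in Tet3-/-. It rose in XY (log2 fold change 2.16, limma adjusted p 1.502e-07) as well as in Tet3-/- (1.18, limma adjusted p 5.08e-05) and was not called in XX. The XX transition differed from the XY one by -1.84 (SE 0.27, limma adjusted p 0.000238). Dnmt3a-201 rose in all 3, by 1.86, 1.95 and 1.82 on the log2 scale, and its share of Dnmt3a rose by 16.0 percentage points (exact permutation, adjusted p 0.0055). Dnmt3a-218, which starts downstream of it in the same region, rose in all 3 as well (0.76, 1.12 and 1.25, limma adjusted p 0.00793, 0.000383 and 6.57e-05), though its XX call was lost on the deposited TPM. The upstream stretch printed for Dnmt3a, with its 38 CG, ends before a RefSeq start at 3806980, within 100 bases of the GENCODE start of Dnmt3a-201 (3807030). The internal one, with 15, ends before a RefSeq start at 3891744 and so overlaps the first bases of Dnmt3a-205, whose GENCODE start is 3891728.

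Uhrf1 has an upstream start (Uhrf1-201 and Uhrf1-203) and another start downstream of it (Uhrf1-202 and Uhrf1-204). The downstream start held 17.3%, 16.7% and 16.3% of Uhrf1 in XX mESC and 35.5%, 29.2% and 30.3% in XX EpiLC. Among the Tet3-/- libraries it held 26.4%, 25.9%, 24.6% and 25.8% in mESC and 45.5%, 36.8% and 45.5% in EpiLC. In the XY line it held 21.8%, 25.3% and 24.7% in mESC and 21.6%, 22.6% and 16.6% in EpiLC. The share was higher in EpiLC with no overlap in both LF2 genotypes and not in XY, and over all genotypes it rose by 9.38 percentage points (exact permutation p 0.0048, adjusted p 0.011). Uhrf1-202 rose in share by 12.5 points (adjusted p 0.00055 by exact permutation), from 12.5% to 24.6% in XX, 7.20% to 16.7% in XY and 10.4% to 26.3% in Tet3-/-. Its level rose in XY (log2 fold change 0.62, limma adjusted p 0.0194) as well as in Tet3-/- (0.85, limma adjusted p 0.00146), while the gene total was not called in any transition. The XY call was lost without XY EpiLC 2 or 3 or XY mESC 1 or 3. Uhrf1-203, with as many codons as Uhrf1-202, fell in share by 7.6 points (exact permutation, adjusted p 0.0029). Together these transcripts rose by 4.88 points (exact permutation, adjusted p 0.02). Uhrf1-203 fell in level in XX (-2.82, limma adjusted p 0.00422) and XY (-1.94, limma adjusted p 0.0372). Uhrf1-204 fell in XY only (-2.66, limma adjusted p 0.00913). Neither was called in Tet3-/-. How reads shared among these isoforms were divided was not tested.

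Dnmt3l is read mainly from a pair of nearby starts, Dnmt3l-201 and Dnmt3l-208, both with 421 codons. Dnmt3l-208 held 32.0%, 26.2% and 28.9% in XX mESC and 49.5%, 52.2% and 49.5% in XX EpiLC. For the mutants it held 39.5%, 43.0%, 38.0% and 42.0% in mESC and 48.5%, 60.5% and 45.9% in EpiLC. In XY cells it held 41.2%, 27.4% and 29.9% in mESC and 65.5%, 38.4% and 51.4% in EpiLC, where the total was 0.334 or less. The XX and Tet3-/- shares were higher in EpiLC with no overlap, the XY ones overlapped, and the rise over all genotypes was 17.1 points (exact permutation p 0.00029, adjusted p 0.00098). In XX cells Dnmt3l-208 itself rose (log2 fold change 1.24, limma adjusted p 0.0326), although the gene was not called; this call was lost without XX mESC 2 or any single XX EpiLC library. In Dnmt1 neither of the transcripts with a tested share changed it. The transcript of 1620 codons, Dnmt1-201, held 59.7% to 65.0% on average in every group, and Dnmt1-202, which starts at the far upstream site, held 26.3% to 32.3% (exact permutation, adjusted p 0.61 and 0.28). Uhrf2-201 (803 codons) held 55.4% to 72.5% on average, and its retained-intron transcript Uhrf2-206 rose in share by 3.41 points (exact permutation, adjusted p 0.0052).

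Genes that act with the methyltransferases were counted in lists chosen with earlier results of these data known, against the 50.4%, 51.4% and 52.4% of all genes called in the XX, XY and Tet3-/- transitions. By direction, 24.5%, 26.4% and 25.2% of all genes were higher and 25.9%, 25% and 27.2% lower. The median log2 fold change of all genes was -0.02 in XX and nearer to 0 in the other transitions. Of 9 maintenance partners, 1 was higher and 4, 3 and 3 were lower, with list medians of -0.20, -0.19 and -0.24. Dppa3, a maternal factor that keeps UHRF1 off chromatin, fell in all 3 (log2 fold changes -4.16, -4.71 and -4.80), from group means of 79.80, 45.00 and 56.56 to 3.03, 0.0777 and 1.02. Pclaf, a PCNA-binding protein, rose by 2.27, 2.64 and 1.57, and Usp7, the deubiquitinase that binds DNMT1 and UHRF1, fell in XY (-0.51) and Tet3-/- (-0.62). The XX mean of Usp7 was also lower in EpiLC (42.75 against 62.62 in mESC). The XY fall of Usp7 was 0.16, in the other direction, on the deposited TPM. Without scaling, on deposited TPM, 1 partner was lower in each transition.

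Of 11 tested regulators of de novo methylation, 3 were higher in each transition and 5, 4 and 5 were lower (medians -0.10, 0.02 and -0.20). Prdm14, which represses Dnmt3b in naive cells, fell (-3.22, -3.41 and -3.50), from 10.56, 10.11 and 12.32 to 0.240, 0.0321 and 0.178. Zfp42 fell (-2.29, -5.15 and -3.40), and its transition differed between XX and XY by 2.86 (limma adjusted p 1.32e-06). Kdm2b, a CpG island binding demethylase, fell in XX (-1.85) and Tet3-/- (-1.09), and Ehmt1, a histone H3 lysine 9 methyltransferase, rose in XY (1.24). Means of Ehmt1 were also higher in EpiLC in XX (17.16 against 11.12) and Tet3-/- (14.83 against 10.3). In EpiLC the mutants had less Zfp42 than XX (-1.16, limma adjusted p 0.00141) and less Ehmt2 (-0.51, limma adjusted p 0.0265), a call that was lost without Tet3-/- EpiLC 3, XX EpiLC 2 or XX EpiLC 3. On the deposited TPM 2, 5 and 0 regulators were higher and 4, 2 and 4 lower.

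Of 8 genes of methylation removal, 4, 4 and 5 were higher and 3, 2 and 3 lower (medians 0.68, 0.21 and 0.51). Tet2 fell in all 3 (-2.28, -2.23 and -2.58). Tet1 was 28.83 in XX mESC, 0.482 in XY mESC and 27.66 in Tet3-/- mESC, and 17.10, 4.00 and 9.88 in EpiLC, so that its transition differed between XX and XY by -2.46 (limma adjusted p 1.80e-05). In Tet3-/- EpiLC Tet1 was lower than in XX (-0.80, limma adjusted p 0.0332), a call that was kept without Tet3-/- EpiLC 3 and lost without any other EpiLC library of the pair. Of 10 readers of methylation, 0, 2 and 3 were higher and 3, 4 and 3 lower (medians 0.07, 0.00 and 0.01). Zbtb38 fell (-0.51, -1.81 and -0.83), as did Mbd4, a repair glycosylase (-0.59, -0.70 and -0.80). Without scaling, on deposited TPM, the removal counts were 5, 4 and 4 higher and 1, 1 and 3 lower, and the reader counts 0, 3 and 0 higher and 0, 1 and 3 lower.

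Of 4 readers of imprinted regions, 1, 2 and 0 were higher and 2, 2 and 2 lower (medians -0.23, -0.02 and -0.37). Zfp57, which binds methylated imprinting control regions, fell (-0.55, -2.42 and -1.09), with 101.6, 128.2 and 82.8 in mESC and 69.3, 23.25 and 38.82 in EpiLC. Trim28 fell in all 3 as well (-0.91, -0.51 and -0.82), but the XY value was 0.16 on the deposited TPM. There 0, 2 and 0 of the 4 were higher and 0, 1 and 2 lower. Of 8 genes that supply methyl donors, none was higher and 3, 4 and 3 were lower (medians -0.33, -0.41 and -0.37). Shmt1 fell (-1.36, -0.68 and -1.47), as did Mat2a, which makes S-adenosylmethionine (-1.06, -0.64 and -0.68), with 0.02 for the XY value of Mat2a on the deposited TPM, where 1, 0 and 2 donor genes were lower. The XY fall of Trim28 was also lost without XY EpiLC 1, XY mESC 1 or XY mESC 3. That of Mat2a was lost without XY mESC 1 or 3, and its Tet3-/- fall without Tet3-/- EpiLC 1 or 4. No donor gene was called in Tet3-/- against XX in either state.

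Of the 20 DNA replication genes, 1, 2 and 1 were higher and 5, 0 and 6 lower (medians -0.34, -0.29 and -0.42). On the deposited TPM 0, 0 and 1 were lower, and without XX mESC 2 the XX count was 2. Mki67 rose in all 3, by 0.85, 0.97 and 0.71, while Gins1 fell in XX (-0.81) and Tet3-/- (-0.78). The Gins1 calls were lost on the deposited TPM, in XX also without XX mESC 2 and in Tet3-/- without Tet3-/- EpiLC 1. Of 15 tested genes known to be silenced by promoter methylation, most with germline roles, 10, 5 and 8 were lower and 2, 3 and 3 higher (medians -1.46, -0.40 and -1.76). Dazl fell in XX (-5.47) and in Tet3-/- (-6.03), from 81.47 and 99.03 to 0.400 and 0.427, and in XY it averaged 10.60 in mESC and 0.071 in EpiLC. Rpl10l fell (-4.38, -5.36 and -3.92), and so did Hormad1 (-3.77, -3.90 and -4.05). In mESC 10 of the 15 were higher in XX than in XY and 1 was lower, where 17.7% of all genes were higher and 13.6% lower.

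The genes whose levels ran most closely with each member over the 19 libraries were taken from 8085 genes with a mean of at least 5 scaled TPM. These correlations are descriptions, and the libraries share groups and lines. Dnmt1 ran closest with Mcm3 (Pearson r 0.969), a replicative helicase subunit, and with Cstf2 (0.968) and Akap8 (0.960). Uhrf1 ran with Dpp3 (0.960), Usp5 (0.956) and Atad2 (0.943), and Uhrf2 with Abhd13 (0.877), Trim32 (0.787) and Shoc2 (0.783). Dnmt3a ran with Klhl7 (0.978), Skil (0.971) and Tead2 (0.964), and Dnmt3b with Phf10 (0.987), Zcchc3 (0.987) and Cbx5 (0.970). Dnmt3l ran with Cd55 (0.933), Lgals3 (0.928) and Cast (0.926).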

How the data were processed

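The 19 RNA libraries of mouse stem and epiblast-like cells were made with a stranded total RNA kit after removal of ribosomal RNA, per the labels' protocols. The deposited table holds TPM per transcript for every library. The submitters' processing notes name FastQC 0.11.7, Trimmomatic 0.35, Salmon 1.1.0 and the GRCm38 genome, and the annotation release is not given in the sources used here. TPM, as deposited by the authors, sums to a fixed total per library and keeps no read depth, so no counting interval could be computed and precision rests on the spread between libraries.

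Transcripts were matched by identifier to the GENCODE M21 annotation of GRCm38, 139357 with version and 495 without. A further 1096 did not match and held 0.0454% to 0.215% of the TPM of a library. TPM was summed per gene, filtered at 1 TPM or more in at least 3 libraries, divided by a median-of-ratios factor over 13815 genes (0.595 to 1.7) and transformed as log2 with a pseudocount of 1. limma 3.58.1 (R 4.3.3) was fitted over the 6 groups and 19 libraries with a trended prior variance. P-values were adjusted within each of 9 contrasts by Benjamini-Hochberg, and transcripts were fitted the same way. The code was tested on simulated data. Transcript shares were compared by exact permutation (SciPy 1.17.1, NumPy 2.4.6, pandas 2.3.3, Python 3.11.15), and plots were drawn with matplotlib 3.10.9.

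The 6 genes and the pathway lists were chosen with earlier results of these data known. All members were named. Their transcripts were named at a mean of 1 scaled TPM or 10% of the gene in a group. From each list up to 3 called genes with the largest fold change per contrast could be named, and for likeness the 3 genes with the highest Pearson r. A list gene can thus be called in a contrast for which it is not named. The values of 1 gene of the reader list, which stays in its counts, are not reported here.

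Alternatives covered the scaling (deposited TPM, quantile normalization, TPM rescaled over nuclear protein-coding genes), the pseudocount (0.1), the filter, the groups in the fit, the variance trend, the transcripts summed, a replicate block and each library left out. The replicate block for transcripts, the grouping of transcripts by exon or start site and the alternatives for list counts were chosen after seeing the data. Whether XX and XY share a laboratory batch is not given in the labels.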

Additional observations from a re-analysis of the deposited data

Results flagged for a closer look

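The transition from mESC to EpiLC differed between the XX and XY lines for several members and related genes, by a limma test of the difference itself (XX minus XY, on the log2 scale, adjusted over all genes or transcripts). Sex and cell line cannot be told apart in these values. Among the members the difference was 3.21 for Dnmt3l and -1.07 for Dnmt3b. Among their transcripts it was -2.05 for Dnmt3b-202, -1.76 for Dnmt3b-207, -1.15 for Dnmt3b-211 and -1.09 for Dnmt3b-212. With a pseudocount of 0.1 those of Dnmt3b-202, Dnmt3b-207 and Dnmt3b-212 were not called, at -3.30, -0.99 and -1.41. The Dnmt3b-212 call was also lost without XY EpiLC 2 or 3 (-0.96 and -0.98). It was 2.42 for Dnmt3l-201, 2.62 for Dnmt3l-208 and -1.84 for Dnmt3a-205. The share of Dnmt3a from the internal start changed by -29.0 percentage points in XX and by 17.2 in XY, with every library on its side of the other state, and the difference between these changes was not tested.

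Of the maintenance partners, Cdca7 differed by -0.75. Of the regulators of de novo methylation, Zfp42 differed by 2.86, Kdm2b by -1.67 and Ehmt1 by -0.65. Of the readers, Zbtb38 differed by 1.31 and Mbd2 by 0.75, and of the imprint readers Zfp57 by 1.87. Of the removal genes, Tet1 differed by -2.46, Gadd45a by 2.22 and Tet3 by -0.54. The Tet3 call was lost in 6 of 12 fits that left a library out (range -0.65 to -0.43), namely without XX EpiLC 1, XX mESC 1 or 3, XY EpiLC 2 or 3, or XY mESC 1. Of the replication genes, Pold1 differed by -1.18. Of the genes silenced by promoter methylation, Asz1 differed by -2.23, Tex19.1 by 1.87 and Brdt by -1.71. The Asz1 call was lost in 11 of 12 such fits and was kept without XX mESC 2 (-3.08), where the others ranged from -2.29 to -1.79. On the deposited TPM, Cdca7 (-1.20), Ehmt1 (-1.11), Zbtb38 (0.97) and Mbd2 (0.34) were not called.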

How the results depend on the processing

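All values come from these libraries, and depth is unknown. Of 954 refits of the members' log2 values, 843 kept direction and side of the threshold, 50 lost a call, 22 gained one and 39 changed sign. Of 558 refits of transcript calls, 492 held and 66 were lost. Of 615 refits of transcript shares, 606 held, 2 were lost, 3 were gained and 4 changed sign. The cause of a change was not tested except where fewer genes or libraries were used. With all libraries and the scaling used, 7541 genes were called in the XX transition, 7689 in XY and 7843 in Tet3-/-. Between Tet3-/- and XX it was 476 in mESC, 818 in EpiLC and 99 for the transition difference, and between XX and XY 4683, 5066 and 3547. For transcripts the numbers in the same order were 12709, 12693, 12758, 366, 788, 54, 6757, 7664 and 4255.

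On the deposited TPM the gene counts were 4689 in the XX transition, 90, 161 and 26 for Tet3-/- against XX (mESC, EpiLC, transition difference) and 2121 for XX against XY in mESC. The transcript counts were 7297 in XX, 7923 in Tet3-/-, 47, 132 and 14 for Tet3-/- against XX, and 2728 and 13627 for XX against XY in mESC and EpiLC. Members called were 2 in the Tet3-/- transition, 0 for Tet3-/- against XX in EpiLC and 1 each for XX against XY in mESC and in the transition difference. Signs changed for Dnmt3b (0.18) and Uhrf2 (0.21) in Tet3-/- against XX mESC, for Uhrf1 in both transition differences (-0.13 against XX, -0.44 for XX minus XY) and for Uhrf2 in XX (0.06). In the XY transition they changed for Dnmt1 (0.38), Uhrf1 (0.06), Mat2a (0.02), Mbd2 (0.01), Trim28 (0.16) and Usp7 (0.16). Against the scaling used, the deposited TPM moved the median of all genes by 0.14 in XX, 0.54 in XY and -0.13 in Tet3-/- transitions. For Tet3-/- minus XX it moved by 0.19 in mESC and -0.07 in EpiLC, and for XX minus XY by -0.19 and -0.59. The percentage of calls that were higher went from 48.63 to 61.16 in XX, from 51.33 to 81.46 in XY and from 48.12 to 38.7 in Tet3-/-. It went from 55.67 to 82.22 for Tet3-/- against XX in mESC, from 45.72 to 11.18 in EpiLC and from 37.37 to 0 for the transition difference. For XX against XY it went from 56.46 to 45.4, from 50.95 to 11.07 and from 46.01 to 22.53.

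On TPM rescaled over nuclear protein-coding genes, 0 members were called for Tet3-/- against XX EpiLC, 0 for XX against XY mESC and 1 for the XX minus XY transition difference, and 178 genes for Tet3-/- against XX mESC. Signs changed there for Dnmt3b (0.02) and Uhrf2 (0.01) in Tet3-/- against XX mESC, Uhrf1 in the XX minus XY transition difference (-0.13, and also -0.13 under quantile normalization), Uhrf2 in XX (0.02) and Dnmt1 in XY (0.04). With a minimum of 5 TPM, the gene counts were 4999 in XX, 51 and 2186 for the transition differences of Tet3-/- and of XY against XX. The transcript counts were 5520, 5727 and 5771 for the transitions of the 3 genotypes, 488 and 31 for Tet3-/- against XX in EpiLC and the transition difference, and 3577, 3996 and 2112 for XX against XY. When calls also had to reach 1 on the log2 scale in either direction, the counts were 2807, 2951 and 2883 for the transitions, 67, 139 and 50 for Tet3-/- against XX, and 1340, 1338 and 1638 for XX against XY. With no filter, members called were 0 for Tet3-/- against XX EpiLC, 0 for XX against XY mESC and 1 for the XX minus XY transition difference, and 92 transcripts differed in transition between Tet3-/- and XX. With only the groups compared, the counts were 8, 404 and 50 for Tet3-/- against XX and 2326 and 8646 for XX against XY, and no member (0) was called for Tet3-/- against XX EpiLC or XX against XY mESC by limma. With protein-coding transcripts only, Dnmt3b was 0.08 in Tet3-/- against XX mESC, Uhrf2 was 0.13 in XX against XY mESC, and the share changes of Dnmt1-201 and Uhrf2-201 were 0.3 and 0.0 points. A single member (1) then differed in transition between XX and XY, as it did with a pseudocount of 0.1, where 62 genes differed between Tet3-/- and XX.

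Replicate numbers were not shown to pair the samples. Same-numbered libraries of the 2 states correlated at 0.04, -0.05 and 0.06 in XX, 0.21, -0.03 and 0.27 in XY and 0.22, 0.22 and -0.09 in Tet3-/-. Of 9 numbers, 6 correlated best with their own, among 3 or 4 mESC libraries each. Within a state, XX and Tet3-/- libraries of the same number correlated at 0.47, 0.48 and -0.44 in mESC and 0.07 and 0.08 in EpiLC. XX and XY ones correlated at -0.16, -0.29 and 0.09 in mESC and 0.27, 0.05 and 0.08 in EpiLC. With a replicate block, 7324, 7503 and 7263 genes were called in the transitions, 334, 627 and 14 for Tet3-/- against XX and 4552, 5004 and 3051 for XX against XY. The block called Uhrf1 in XX and XY (limma adjusted p 0.0376 and 0.0335), Dnmt1 between XX and XY EpiLC (0.0403), and 2 members for Tet3-/- against XX EpiLC, where Dnmt3l was -1.68 (0.0492) and Dnmt1 0.00. Dnmt3b was 0.00 for Tet3-/- against XX mESC.

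Leaving out each library in turn gave ranges. For Tet3-/- against XX EpiLC, 366 to 956 genes (472, 385 and 366 without XX EpiLC 1, 2 and 3), 248 to 866 transcripts and 0 to 1 members were called, with Dnmt1 at -0.28 to 0.13 and Uhrf1 at -0.35 to 0.04 (highest without Tet3-/- EpiLC 1). For Tet3-/- against XX mESC, 190 to 1593 genes were called (190 without XX mESC 1, 218 without XX mESC 3, 317 without Tet3-/- mESC 4, 1593 without XX mESC 2). There, 94 to 1839 transcripts and 0 to 2 members were called, with Dnmt1 at -0.09 to 0.25, Dnmt3b at -0.21 to 0.29 and Uhrf2 at -0.17 to 0.04. The transition difference of Tet3-/- and XX had 53 to 361 genes (361 without XX mESC 2, 190 without Tet3-/- EpiLC 3), 22 to 262 transcripts and 0 to 1 members, with Dnmt1 at -0.32 to 0.09. For XX against XY mESC, 4268 to 8979 transcripts (lowest without XX mESC 1) and 0 to 2 members were called, with Uhrf2 at -0.15 to 0.07. Their transition difference had 1 to 3 members, with Uhrf1 at -0.13 to 0.31. Dnmt3l was -0.03 to 1.1 in XX and -0.50 to 0.18 in Tet3-/- (highest without Tet3-/- EpiLC 1), and 3 to 5 members were called in XY (5 without XY mESC 2). The share changes were -1.2 to 0.0 points for Dnmt1-201 and -1.6 to 5.5 for Dnmt3l-207.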
